A study of Rattus norvegicus with 22 samples.

Results

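Lungs of 6 Vehicle rats were compared, 3 at 18 h and 3 at 2 h after injection, out of 22 rats measured in the series. They are all the rats labelled as vehicle controls. According to the methods the animals were male Sprague–Dawley rats, anesthetized for the injection, with a weight of about 350 g in the labels and a higher one in the methods. Vehicle was 0.15 ml of 0.01% Tween 20 per 100 g body weight, given into the right jugular vein without the microspheres used for pulmonary embolism (PE). All lungs were lavaged with 8 ml saline before excision, which takes out part of the cells free in the airspaces, and RNA of the right lung lobe of each rat was hybridized to its own Affymetrix rat genome array. The other 16 rats received 25 micron polystyrene microspheres in 0.01% Tween 20. They entered as 4 Mild PE (1300000 microspheres per 100 g) and 4 Severe PE (2000000 microspheres per 100 g) rats at each time. The injected volume was 0.15 ml per 100 g in Severe PE, as in Vehicle, but 0.1 ml in Mild PE. No lung of an uninjected rat was among the samples, and the labels give the hours since injection but not the hour of the day. Time of day, recovery from anesthesia and injection, and any effect of Tween 20 therefore cannot be told apart in the 18-h against 2-h difference.

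Many genes of the lung change through the day. The molecular clock is a loop in which Bmal1 and Clock switch on the Per and Cry genes, whose proteins then block them. A linked loop runs through Nr1d1 and Nr1d2, nuclear receptors known as REV-ERBα and REV-ERBβ, which repress Bmal1 and Nfil3. Immediate early genes such as Fos, Egr1, Junb and Ier2 respond within minutes to handling, stretch, blood flow and cytokines, and Klf2 is known in endothelium as a factor induced by shear stress. Glucocorticoids, released in stress and on a daily rhythm, raise Fkbp5, Klf9 and Per1 in many tissues.

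Values are log2 array signals after quantile normalization, with a floor of 4, and the values of single rats are given in the order rat 1, rat 2 and rat 3. The array gave 31042 probesets, and the 20826 annotated to a single symbol stood for 14217 genes, each given by its probeset of highest mean. Differences are 18-h minus 2-h with the standard error (SE) of a limma fit. A probeset passed where the difference was at least 1.5-fold and its p, adjusted by Benjamini-Hochberg over all probesets, was under 0.05. Because the tissue was bulk lung, fewer cells of a type and less RNA per cell cannot be told apart anywhere below.

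The 6 arrays were of unequal quality. For the Gapdh control transcript the 3′ minus 5′ signal was 0.64 on 18-h Vehicle rat 1 and 0.35 on 2-h Vehicle rat 3, against 0.18 to 0.20 on the other 4. The 18-h rat 1 array also had the lowest median before normalization of all 22 arrays (6.841) and the most probesets under the floor (17.3%). Over probesets with a mean of at least 7 the median SD between rats was 0.222 in the 18-h and 0.230 in the 2-h Vehicle group. Over all 31042 probesets, dim ones included, arrays of different times correlated at r = 0.943 to 0.978. This overlapped the ranges within the 18-h group (0.959 to 0.971) and within the 2-h group (0.971 to 0.982).

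How much was called depended on where the spread was estimated. On the 6 Vehicle arrays alone, 5 probesets passed (0.0161% of those tested) although 4815 (15.5%) had an unadjusted p under 0.05. With the spread taken from all 22 arrays, 833 passed (2.68%), of which 455 were higher (1.47%) and 378 lower (1.22%) at 18 h. By gene, 494 of 14217 passed (3.47%), 300 higher (2.11%) and 194 lower (1.36%). The words rose and fell are used for Vehicle genes that passed this fit. The 3 rats of 18 h all lay above the 3 rats of 2 h in 3863 probesets (12.4%) or 2546 genes (17.9%), and below them in 3081 probesets (9.93%) or 1596 genes (11.2%). Without 2-h rat 3 the count was 57 in place of 833, without 18-h rat 1 it was 259, without 18-h rat 2 it was 287 and without 18-h rat 3 it was 1371. Without both arrays of low 5′ signal it was 32, of which 23 were among the 833. Of the gene list members that passed, Klf2 and Itga8 also passed without 2-h rat 3. The others had an adjusted p between 0.0924 (Ier2) and 0.261 (Prc1) there in limma, Nr1d2 at 0.147. With arrays centred on their medians in place of quantile normalization 1198 probesets were higher and 296 lower, and with no further normalization 402 and 744.

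The largest clock differences were in the REV-ERB pair. Nr1d2 had 7.75, 7.29 and 8.34 in 18-h Vehicle lungs, against 9.22, 9.71 and 10.22 in 2-h Vehicle lungs. The groups were apart, with the highest 18-h rat below the lowest 2-h rat. Nr1d2 fell by 1.92 on the log2 scale (SE 0.42, a 3.79-fold difference, adjusted p = 0.0254 in the 22-array limma fit), and its 3 probesets gave differences of −1.92 to −1.16. Nr1d1 had 8.27, 7.76 and 8.60 in 18-h Vehicle lungs, against 10.17, 10.18 and 10.50 in 2-h Vehicle lungs. Its rats did not overlap either, yet the difference of −2.07 (SE 0.80) did not pass (adjusted p = 0.131, and 0.162 on the 6 Vehicle arrays). The spread of all 22 rats enters this fit, and the SD of Nr1d1 was 1.73 in Mild PE and 1.38 in Severe PE rats at 2 h. Without 18-h rat 1 the Nr1d2 difference was −1.90 (adjusted p = 0.0646) and without both arrays of low 5′ signal −1.65 (0.229).

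The 250 bases before the annotated start of the REV-ERB genes are shown because these genes carry the clock result. Both are from RefSeq on the GRCr8 build, Nr1d1 on the minus strand at chr10:84231813-84232062 and Nr1d2 on the plus strand at chr15:9954784-9955033. Capitals mark AGGTCA, the core letters bound by REV-ERB and ROR nuclear receptors, searched on both strands together with the E-box CACGTG, the D-box TTANGTAA, the RBPJ core TGGGAA, the cyclic AMP element TGACGTCA and TATAAA.
Nr1d1: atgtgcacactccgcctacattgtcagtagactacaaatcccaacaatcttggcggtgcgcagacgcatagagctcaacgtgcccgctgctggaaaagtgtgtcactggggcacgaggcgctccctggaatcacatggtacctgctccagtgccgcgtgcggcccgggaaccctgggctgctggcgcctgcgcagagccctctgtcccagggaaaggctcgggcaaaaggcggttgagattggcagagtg
Nr1d2: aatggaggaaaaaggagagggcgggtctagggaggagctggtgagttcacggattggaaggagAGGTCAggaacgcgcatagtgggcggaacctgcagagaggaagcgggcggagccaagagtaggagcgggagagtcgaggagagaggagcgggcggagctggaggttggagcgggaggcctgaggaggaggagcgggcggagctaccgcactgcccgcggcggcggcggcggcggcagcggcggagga
The Nr1d2 match lay 187 to 182 bases before the start, and the Nr1d1 window held none of the 6 motifs. Of 33469 rat promoter windows of this length, 14.1% held AGGTCA, 5.59% CACGTG, 2.04% TTANGTAA, 22.1% TGGGAA, 1.59% TGACGTCA and 12.9% TATAAA.

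The REV-ERB difference was measured again in rats that share no array with the Vehicle comparison. Nr1d2 differed by −2.01 between 18-h and 2-h Mild PE (adjusted p = 0.00248) and by −2.23 between 18-h and 2-h Severe PE (4.29e-04), and Nr1d1 by −2.60 (0.0276) and −3.01 (0.00604). The test of the PE minus Vehicle difference gave −0.20 for Nr1d2 (adjusted p = 0.892) and −0.74 for Nr1d1 (0.746). The SEs of the 3 time differences come from the same fit. The 2-h PE rats were unlike each other for Nr1d1. Mild PE rats had 9.81, 8.02, 8.83 and 12.03, and Severe PE rats 8.78, 8.16, 9.36 and 11.36. Dbp was also highest in rat 4 of each group, at 9.83 in Mild PE and 9.39 in Severe PE. Rat 4 thus adds to the size of the Nr1d1 differences in PE, and the differences without it were not fitted.

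The other 17 measured members of the clock lists did not pass in Vehicle. Nfil3, a repressor that competes with the D-box activators and is held down by REV-ERB, had 9.69, 9.45 and 9.28 in 18-h and 8.74, 8.73 and 8.44 in 2-h Vehicle lungs. All 18-h rats were higher and the difference was 0.83 (SE 0.24, adjusted p = 0.0570, and 0.0337 with median centring). Bmal1 had 9.04, 9.25 and 9.19 at 18 h against 8.95, 9.03 and 8.71 at 2 h. These rats did not overlap either, though the lowest at 18 h nearly met the highest at 2 h, and the difference was 0.26 (adjusted p = 0.644). Cry1 (0.49) and Per2 (0.38) were likewise higher in each 18-h rat without passing, while Clock (−0.35), Npas2 (−0.03), Bhlhe40 (−0.42) and Bhlhe41 (−0.25) overlapped. Rora (−1.08), Rorb (0.53) and Bmal2 (−0.80) were dim, with group means under 7.

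Of the genes driven through E-boxes and D-boxes, Per1, Dbp, Tef, Hlf, Per3 and Cry2 did not pass in Vehicle lungs. Per1 had 9.32, 8.28 and 8.80 at 18 h and 9.07, 9.34 and 8.73 at 2 h, a difference of −0.25. Dbp, a D-box activator, differed by 0.04, Tef and Hlf of the same family by −0.08 and −0.07, Per3 by −0.11 and Cry2 by 0.39. Each of these had overlapping rats. In PE rats several of them differed between the times, Per1 by −1.49 in Mild PE (adjusted p = 0.00961), Tef by −1.43 and −1.16 in Mild and Severe PE (0.00167 and 0.00309) and Hlf by −1.17 and −1.07 (0.00173 and 0.00134). The PE minus Vehicle difference passed for Tef (−1.22, adjusted p = 0.0400), Hlf (−1.05, 0.0326) and Cry2 (−0.86, 0.0366), so for these 3 genes the time difference itself differed with treatment. Across the 11 measured repressors and E-box outputs the median was −0.11 in Vehicle, −1.17 in Mild PE and −0.69 in Severe PE, and across the 8 genes listed with the Bmal1 and Clock arm, which include the repressors Nfil3 and Cry1, 0.12, −0.02 and −0.22, beside 0.06 over all 14217 genes in Vehicle. In Vehicle, 1 of the 11 and 0 of the 8 passed, and of the 8, 2 (Nfil3 and Rora) had an unadjusted p under 0.05 in the 22-array limma fit and 0 passed on the 6 arrays.

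**Figure D1:**
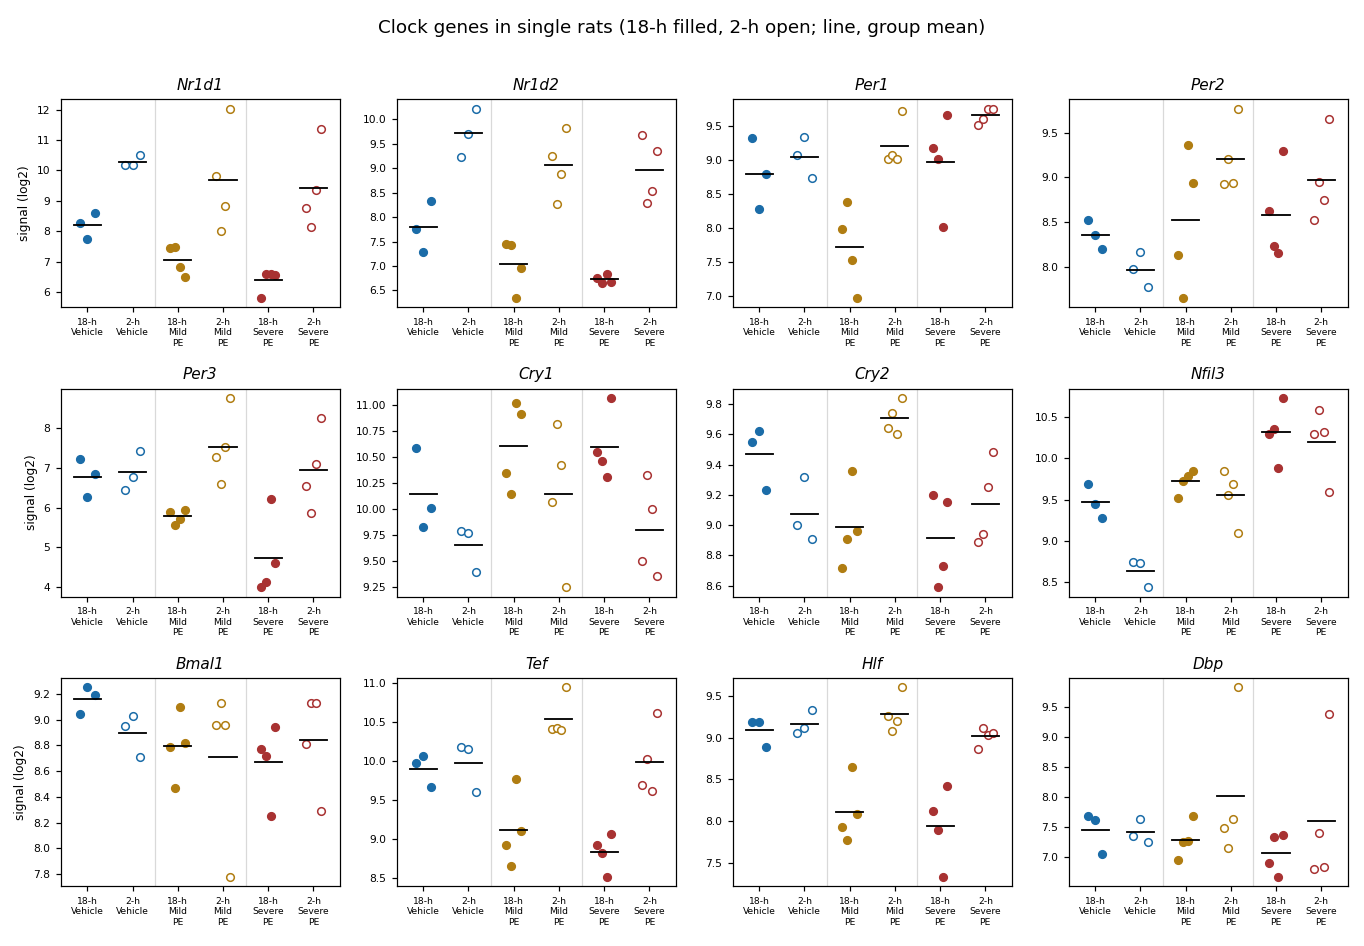
Signal (log2) of 12 clock genes in each of the 22 rats, with 18-h rats as filled and 2-h rats as open circles and the group mean as a line. In Vehicle, Nr1d1 and Nr1d2 are lower in each 18-h rat than in each 2-h rat, whereas Tef and Hlf have Vehicle means within 0.08 of each other and lower 18-h than 2-h means after PE.

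A small set of 10 genes passed in the same direction in all 14 settings counted, which include each array left out and both arrays of low 5′ signal left out. Except where the naming rule also chose them, they were singled out after their values were seen. Nrarp, a feedback inhibitor and target of Notch signaling, had 11.18, 10.78 and 11.19 in 18-h Vehicle lungs, against 9.52, 9.08 and 9.23 in 2-h Vehicle lungs. The lowest 18-h rat was well above the highest 2-h rat, and Nrarp rose by 1.78 (SE 0.18, a 3.42-fold difference, adjusted p = 1.80e-04). Its 3 probesets differed by 1.78 to 1.88. Hlx, a homeobox transcription factor, had 11.51, 11.63 and 11.36 in 18-h rats, against 10.27, 10.41 and 10.14 in 2-h rats. It was higher in each 18-h rat and rose by 1.22 (SE 0.11, adjusted p = 1.595e-04), the smallest adjusted p of the named genes. Without both arrays of low 5′ signal Nrarp rose by 1.69 (adjusted p = 0.00367) and Hlx by 1.15 (0.00180).

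The 250 bases before the starts of Nrarp and Hlx are shown because these were the steadiest calls. They are from RefSeq on GRCr8, Nrarp on the plus strand at chr3:28390495-28390744 and Hlx on the minus strand at chr13:98817265-98817514. Capitals mark CACGTG in Nrarp, 112 to 107 bases before the start, and in Hlx TTCCCA, which is TGGGAA on the opposite strand, 235 to 230 bases before the start.
Nrarp: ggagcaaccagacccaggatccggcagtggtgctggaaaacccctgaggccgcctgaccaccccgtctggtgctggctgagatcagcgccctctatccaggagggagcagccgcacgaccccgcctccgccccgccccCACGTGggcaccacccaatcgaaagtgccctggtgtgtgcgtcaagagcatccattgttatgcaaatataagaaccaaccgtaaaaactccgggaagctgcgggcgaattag
Hlx: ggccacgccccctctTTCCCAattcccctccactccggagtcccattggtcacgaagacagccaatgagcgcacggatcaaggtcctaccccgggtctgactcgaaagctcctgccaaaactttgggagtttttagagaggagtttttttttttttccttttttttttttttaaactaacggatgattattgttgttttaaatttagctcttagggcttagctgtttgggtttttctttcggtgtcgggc
The other motifs of the search were not in these 2 windows.

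The remaining 8 genes of that set were 6 that rose and 2 that fell. Klf2 had 13.81, 13.70 and 13.71 in 18-h rats, against 13.02, 12.75 and 12.68 in 2-h rats. All 18-h rats were higher, and Klf2 rose by 0.92 (SE 0.11, adjusted p = 9.22e-04), although its 5 probesets ranged over differences of 0.00 to 1.74. Il4r, the receptor chain for interleukins 4 and 13, had 11.48, 11.22 and 11.25 at 18 h against 10.34, 10.32 and 10.00 at 2 h and rose by 1.09 (adjusted p = 9.07e-04). Msl1 of a histone acetyltransferase complex rose by 0.88 (its 4 probesets ranged from 0.00 to 0.88). Chtf8 of a replication factor C complex rose by 0.80 (its 3 probesets ranged from −0.56 to 0.80). With a gene's probesets averaged, which is not among the 14 settings, neither Msl1 (0.30) nor Chtf8 (0.29) passed. The zinc finger gene Zbtb9 and C15h14orf93 rose by 1.0 each. Zfp367, a zinc finger transcription factor, had 6.58, 5.85 and 6.43 in 18-h rats, against 7.45, 7.91 and 8.07 in 2-h rats. The groups did not overlap and Zfp367 fell by 1.52 (SE 0.23, adjusted p = 0.00429). Arrdc4, an arrestin domain protein that responds to glucose, fell by 0.91 (adjusted p = 0.00193), and its 3 18-h rats lay within 9.23 to 9.39 against 10.17 to 10.33 in the 2-h rats.

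Among immediate early genes the calls ran one way. Of 33 measured, 6 rose and 0 fell, beside 2.11% and 1.36% of all genes, and in 12 the 18-h rats were all above the 2-h rats, beside 17.9% of all genes. In the reverse order there were 0 of 33, beside 11.2%. The list median was 0.44, against 0.06 over all genes, and the mean level over the list was 9.86, 9.68 and 10.00 in 18-h rats, against 9.45, 9.47 and 9.21 in 2-h rats. Besides Klf2 the members that rose were Ier2, Junb, Ier3, Dusp5 and Maff.

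Ier2, a short-lived growth response gene, had 12.06, 12.53 and 12.74 in 18-h lungs, against 11.50, 11.74 and 11.18 in 2-h lungs. All 18-h rats were higher, and Ier2 rose by 0.97 (SE 0.18, adjusted p = 0.0136). Junb, a partner in the AP-1 transcription factor, had 9.97, 10.11 and 10.49 at 18 h against 9.42, 9.40 and 8.72 at 2 h and rose by 1.01 (SE 0.21, 0.0222). Ier3, which modulates cell death and NF-κB signaling, had 11.53, 11.67 and 12.31 at 18 h against 10.76, 11.13 and 10.80 at 2 h and rose by 0.94 (0.0283). Dusp5, a phosphatase of ERK, rose by 0.71 (0.0342) and Maff, a small Maf transcription factor, by 1.10 (0.0436). For each of the 5 the groups were separate.

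Other members varied more between rats of the same group. Egr1, an early zinc finger transcription factor, had 10.51, 11.73 and 12.77 in 18-h lungs, against 9.85, 10.66 and 10.12 in 2-h lungs. The lowest 18-h rat lay inside the 2-h range, and the difference of 1.46 (SE 0.42) gave an adjusted p of 0.0595. Fos had 9.71, 8.78 and 11.20 against 8.36, 9.20 and 9.08, a difference of 1.02 (adjusted p = 0.175). Ier5 passed the adjusted p but not the fold (0.54, 0.0425), and Rhob was as large (0.54, 0.0531). Without 18-h rat 1 the list had 5 members that passed, and without both arrays of low 5′ signal 2, with a median of 0.34. Without 2-h rat 3 it had 1, and the median was 0.43.

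Set beside the PE rats, 2-h Vehicle had the lowest mean of the 6 groups for Nrarp, Hlx, Klf2, Ier2, Junb, Ier3 and Egr1. Nrarp averaged 11.05 ± 0.23, 11.11 ± 0.19 and 10.43 ± 0.26 in 18-h Vehicle, Mild PE and Severe PE lungs, and 9.28 ± 0.22, 10.40 ± 0.19 and 10.31 ± 0.21 at 2 h in the same order (SD, n = 3 Vehicle and 4 PE rats). For Ier2 the 18-h means were 12.44, 12.40 and 12.31 and the 2-h means 11.47, 12.38 and 12.46, so that 2-h Vehicle lungs stood apart from the other 5 means. Egr1 had 18-h means of 11.67, 12.60 and 12.52 and 2-h means of 10.21, 12.61 and 13.39. The immediate early list had a median time difference of −0.02 in Mild PE and −0.19 in Severe PE, against 0.44 in Vehicle. The PE minus Vehicle difference passed for Nrarp (−1.36, adjusted p = 0.00181), Hlx (−1.05, 6.92e-04), Klf2 (−0.77, 0.00379), Ier2 (−1.04, 0.00892), Ier3 (−1.07, 0.0198), Dusp5 (−0.82, 0.0255), Junb (−0.97, 0.0333) and Egr1 (−1.90, 0.0346), among 1283 probesets in all (4.13%, with 1.79% positive and 2.34% negative). This test uses the same Vehicle arrays on which Nrarp, Hlx and the named early genes were chosen, so its p-values for them are not independent of that choice. For Maff the time difference was 1.10, 1.09 and 0.96 in Vehicle, Mild PE and Severe PE.

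**Figure D2:**
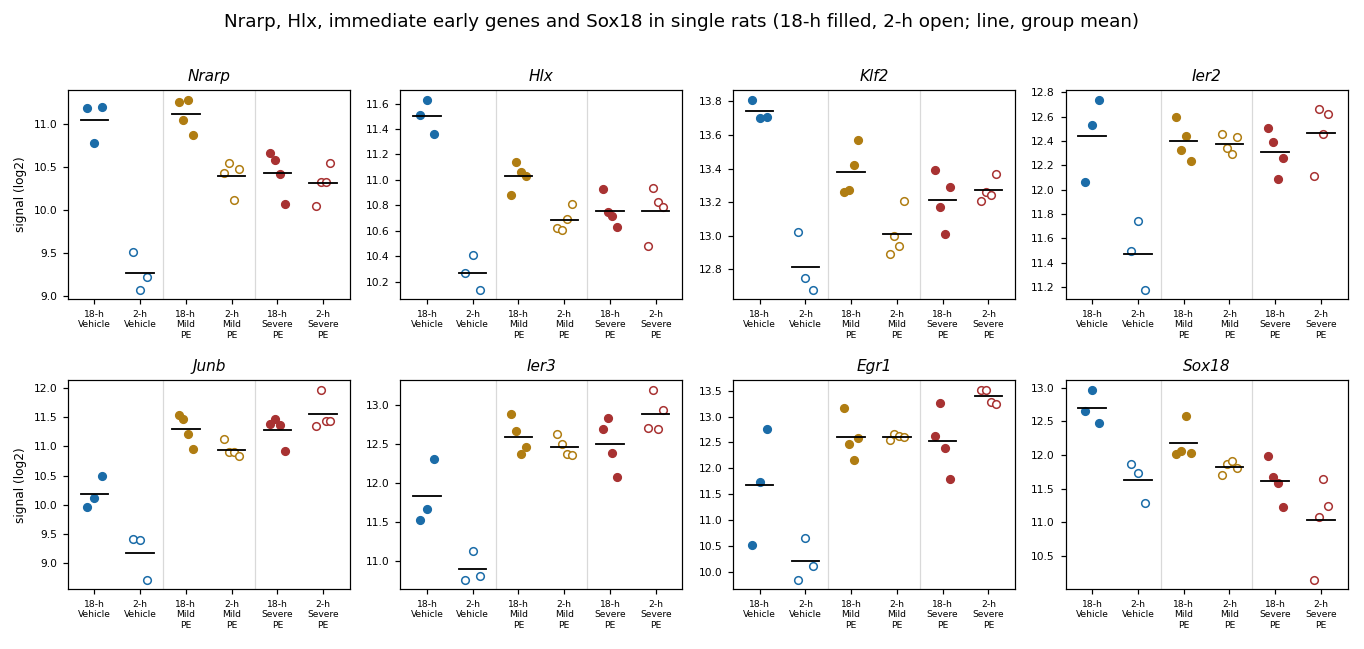
Signal (log2) of Nrarp, Hlx, 5 immediate early genes and Sox18 in each of the 22 rats, 18-h filled and 2-h open, with the group mean as a line. The 3 2-h Vehicle rats lie below all 8 2-h PE rats for Nrarp, Hlx, Ier2, Junb, Ier3 and Egr1, but not for Klf2.

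Among genes with a mean of at least 7 in the higher group, the 15 largest rises were led by Prodh, proline dehydrogenase of mitochondria, which had 10.02, 9.37 and 9.18 in 18-h Vehicle lungs, against 7.92, 7.56 and 6.82 in 2-h Vehicle lungs. It rose by 2.09 (SE 0.39, a 4.24-fold difference, adjusted p = 0.0145), and its other probeset differed by 0.62. Csf3r, the receptor of granulocyte colony stimulating factor on neutrophils, had 10.92, 10.65 and 10.48 against 9.60, 9.02 and 7.77 and rose by 1.89 (0.0322). Tesc, a calcium-binding protein, rose by 1.69, the histone gene Hist3h2ba by 1.57 and the cytokine-induced kinase Pim1 by 1.55. Lrg1, a glycoprotein of the acute phase, had 12.30, 11.96 and 11.59 against 10.91, 10.51 and 10.04 and rose by 1.47 (0.0243). The rest were Ydjc (1.38), the tektin Tekt5 (1.35), the glycine methyltransferase Gnmt (1.31), Lyl1 (1.29), a transcription factor of blood and endothelium, G0s2 (1.27), an inhibitor of fat breakdown, Fndc4 (1.24), Irs3 (1.23), an insulin receptor substrate, and Nrarp and Hlx. By the naming rule the 18-h and 2-h rats of all 30 largest changes did not overlap.

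The 15 largest falls, chosen with the same limit on level, held Nr1d2 and Zfp367. Dimmer genes, some with larger falls than those named, were not considered. Itga8, an integrin chain of smooth muscle and myofibroblasts, had 8.00, 7.77 and 8.52 in 18-h lungs, against 9.30, 9.73 and 9.90 in 2-h lungs. It fell by 1.55 (SE 0.21, adjusted p = 0.00186). Dhx36, a helicase for G-quadruplexes, had 6.54, 8.02 and 8.68 against 9.54, 9.45 and 10.36 and fell by 2.03 (0.0220), although its 5 probesets ranged from −2.03 to −0.03. The membrane glycoprotein Gpm6a (−1.70), the secreted Nell1 (−1.67), the O-glycan enzyme C1galt1 (−1.65), the palmitoyltransferase Zdhhc20 (−1.64), Exoc5 of the exocyst (−1.61), the ubiquitin ligase Hecw2 (−1.55) and the peptidase Phex (−1.54) fell. So did the channel kinase Trpm7 (−1.49), the sodium channel Scn7a (−1.46) and Ankrd1 (−1.46), a stretch-responsive protein of cardiac muscle. Of the 30 named rises and falls, 25 no longer passed without 2-h rat 3, 19 without 18-h rat 1 and 17 without 18-h rat 2. Nrarp, Hlx and Zfp367 were the 3 with the same call in each setting fitted.

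The largest fall in size was an on-or-off signal. Clec3b, which encodes the plasma protein tetranectin, had 5.05, 4.0 and 4.58 in 18-h Vehicle lungs, against 10.31, 10.02 and 10.18 in 2-h Vehicle lungs. The 18-h rats were at or close to the floor, and Clec3b fell by 5.63 (SE 1.48, adjusted p = 0.0458 in the 22-array fit and 0.0506 on the 6 arrays). A dimmer Clec3b probeset gave 4.38, 4.0 and 5.98 at 18 h against 9.03, 8.65 and 8.67 at 2 h. Among PE rats both states occurred within a group. At 18 h the bright probeset had 4.0, 4.73, 4.20 and 8.40 in Mild PE rats and 9.22, 9.14, 8.83 and 5.03 in Severe PE rats. At 2 h it had 5.20, 4.0, 4.0 and 4.61 in Mild PE rats and 4.0, 10.65, 10.21 and 10.09 in Severe PE rats. Both levels thus occurred at both times in these 16 rats. Over all 22 rats the gene most like it was Znrf1 (r = 0.821 of 10444 genes compared), a description only, since the 22 rats share 6 groups. The 13 fibroblast markers, of which Clec3b is 1, had a median difference of −0.18, or 0.09 with median centring.

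The 5 probesets called on the 6 Vehicle arrays were also close to the floor in 1 group. A Cmbl probeset, for a hydrolase, had 4.31, 4.20 and 4.0 at 18 h against 6.90, 6.89 and 6.82 at 2 h, but across PE rats it ran between 4.0 and 6.93. The brighter Cmbl probeset had 9.60, 9.23 and 9.44 against 9.50, 9.57 and 10.24. A Psmb5 probeset, for a proteasome subunit, was at 4.0 in each 18-h rat against 6.18, 5.92 and 5.95, whereas the brightest Psmb5 probeset had 12.89, 12.84 and 12.78 against 12.68, 12.60 and 12.42. A Trpc2 probeset and 2 without a gene symbol made up the 5. With dim probesets left out, 0 passed on the 6 arrays in limma, where 3540 had an unadjusted p under 0.05.

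**Figure D3:**
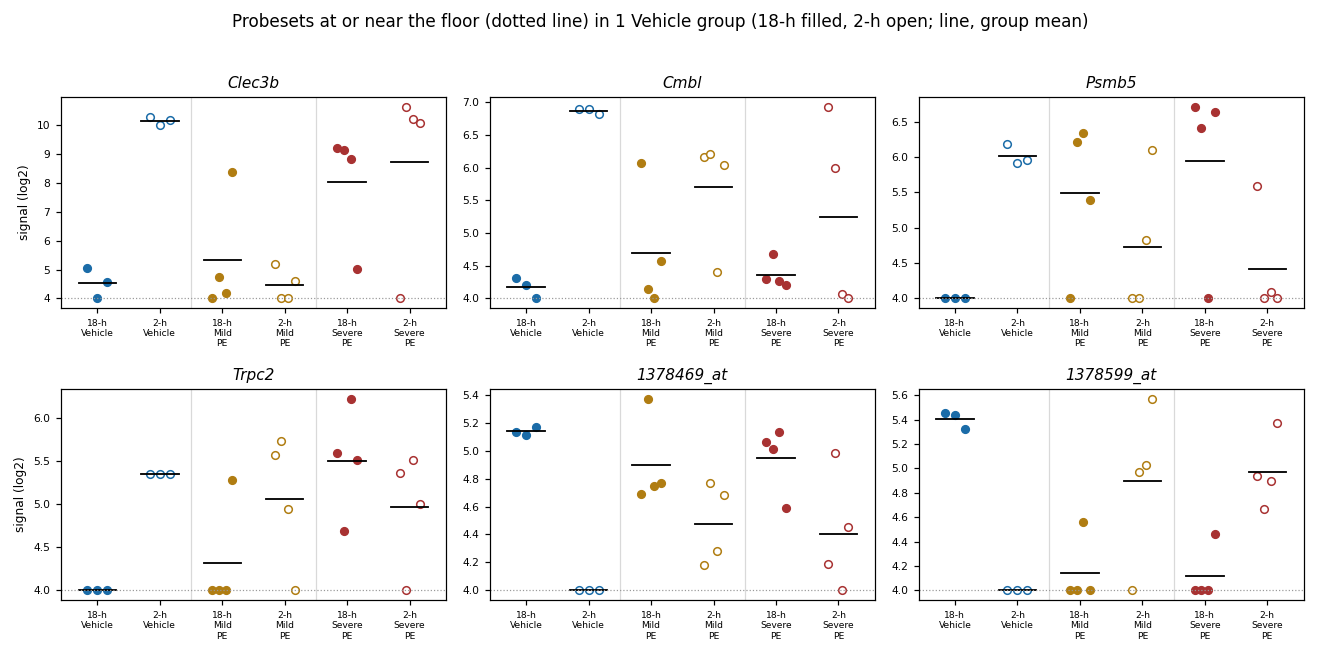
Signal (log2) of the brighter Clec3b probeset and the 5 probesets called on the 6 Vehicle arrays in each of the 22 rats, 18-h filled and 2-h open, with the group mean as a line and the floor dotted. The Vehicle groups are apart, while for each probeset the 18-h and 2-h PE rats overlap.

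Probesets that passed in Vehicle had smaller median time differences in PE rats. The 455 probesets that rose in Vehicle had a median of 0.82 there, 0.26 in Mild PE and 0.17 in Severe PE, and the 378 that fell had −0.90, −0.28 and −0.16. Between 18-h and 2-h Mild PE 1446 probesets passed (4.66%, with 2.32% higher and 2.34% lower), and between 18-h and 2-h Severe PE 3021 (9.73%, with 4.84% and 4.89%). Of the 455, 58 were also higher in Mild PE (12.7% of them and 8.04% of the Mild PE calls that way) and 68 in Severe PE (14.9% and 4.53%). Of the 378, 57 were also lower in Mild PE (15.1% and 7.86%) and 66 in Severe PE (17.5% and 4.34%). The Vehicle values chose these probesets, so a smaller median elsewhere is partly set by that choice.

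A common set of 80 probesets passed in the same direction under all 3 treatments, 36 higher and 44 lower. For 51 genes the probeset of highest mean was in this set. Nr1d2 and Itga8 were among them, with −1.55, −1.58 and −1.27 for Itga8 in Vehicle, Mild PE and Severe PE. Nell1 (−1.67, −2.40 and −3.16), Phex (−1.54, −1.78 and −1.92), Arrdc4 (−0.91, −0.75 and −1.47) and Cavin2 (−1.13, −0.96 and −1.08), a coat protein of caveolae, were lower in each. Lrg1 (1.47, 0.98 and 1.42), Maff, Fndc4 (1.24, 0.85 and 0.63), Upp1 (0.87, 0.86 and 0.87), which cleaves uridine, and Bop1 (0.74, 0.94 and 0.94), a factor of ribosome assembly, were higher in each. Cavin2 and Upp1 were singled out after their values were seen.

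**Figure D4:**
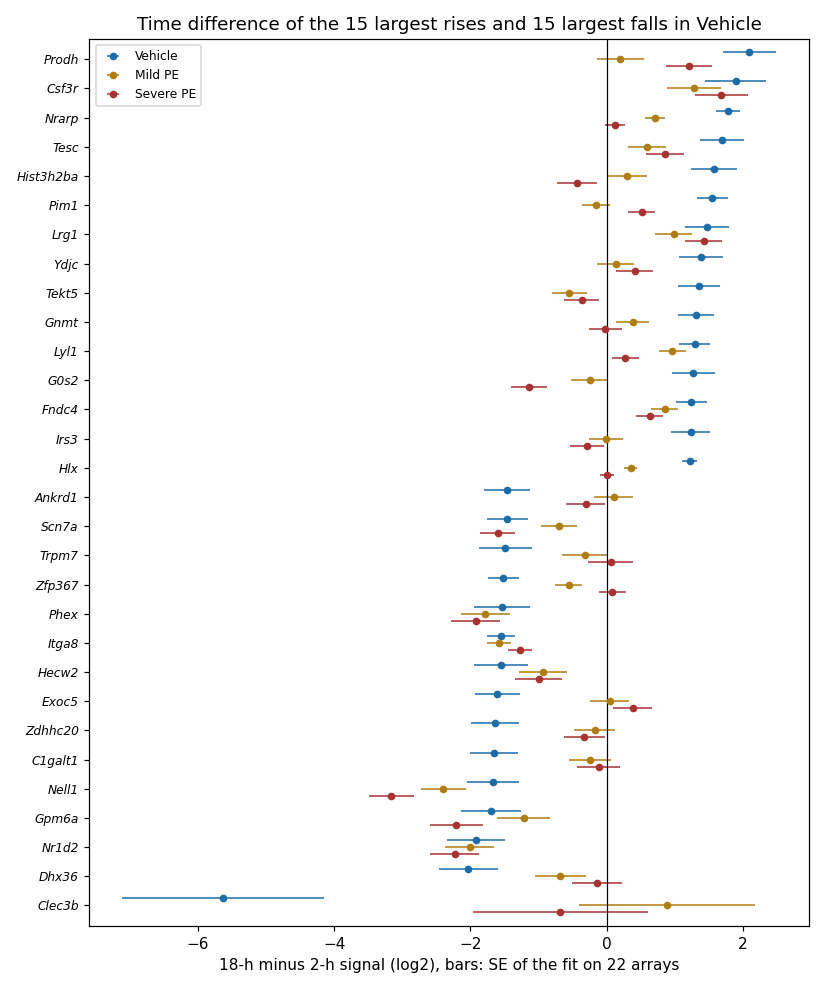
18-h minus 2-h difference (log2) of the 15 largest rises and 15 largest falls of Vehicle lungs, in Vehicle, Mild PE and Severe PE, as points with the SE of the fit on 22 arrays. Nr1d2, Itga8, Phex and Nell1 are low in all 3 treatments, while Gnmt (−0.02) and Zfp367 (0.08) lie near 0 in Severe PE.

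Among inflammatory cytokines no gene passed between the times in Vehicle lungs. Tnf, an early macrophage cytokine, had 7.48, 7.41 and 7.60 at 18 h and 7.87, 7.25 and 6.90 at 2 h, a difference of 0.15. Cxcl2, which draws neutrophils, differed by 0.09, Ccl2, which draws monocytes, by 0.10, Il6 by −0.02 near the floor and the metallothionein Mt2A by 0.11. All 5 had overlapping rats. Of 24 cytokines and chemokines measured 0 rose and 0 fell. In 5 the 18-h rats were all higher, beside 17.9% of all genes, and 3 (Il1b, Il1rn and Osm) had an unadjusted p under 0.05 in limma. With median centring 1 of the 24 passed as higher, at a list median of 0.21 in place of 0.11. Without 2-h rat 1 there was also 1, at a median of 0.32. Il1b passed as higher in 3 of its 15 alternatives. Il1b, the early cytokine interleukin 1β, was the closest, with 10.18, 10.29 and 10.51 against 9.87, 9.0 and 8.70, a difference of 1.14 (adjusted p = 0.0727), and its receptor antagonist Il1rn differed by 1.30 (0.126). Selp, the endothelial adhesion molecule P-selectin, had 7.91, 8.22 and 7.84 against 7.44, 7.24 and 6.75, a difference of 0.85 (0.217), where the PE differences were 3.05 and 2.23.

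Of the acute phase genes a single one passed. Orm1, a plasma acute phase protein, had 6.72, 7.23 and 6.87 in 18-h Vehicle lungs, against 5.11, 4.95 and 5.30 in 2-h Vehicle lungs. Orm1 rose by 1.82 (SE 0.38, adjusted p = 0.0209), and by 3.12 and 5.37 between the times in Mild PE and Severe PE, a difference of time effects of 2.42 (0.00566). It was 1 of 17 measured members that passed, with a list median of 0.38. Without 2-h rat 3 the median was 0.17, without 18-h rat 2 it was 0.22 and at a floor of 64 it was 0.17, and 0 passed in each. Orm1 was not among the largest rises because its 18-h mean lay under 7. Saa3, a tissue form of serum amyloid A, differed by 0.88 (0.257) and Timp1, an inhibitor of matrix proteases, by 0.38 (0.0599), against 2.45 and 2.60 after Mild PE and Severe PE.

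No target of the glucocorticoid receptor passed. Fkbp5, a chaperone of that receptor, had 9.37, 9.18 and 8.76 in 18-h lungs, against 10.26, 10.28 and 10.22 in 2-h lungs. The rats did not overlap, and the difference of −1.15 (SE 0.31) gave an adjusted p of 0.0513 in limma. Over 15 alternatives the Fkbp5 difference stayed between −1.30 and −0.98, and in 4 of them it passed as lower. Klf9, a transcription factor, differed by −0.68 (0.0975) and Pdk4, a kinase that holds back pyruvate oxidation, by −1.0 (0.119), both with all 18-h rats lower. Of 23 measured targets 0 passed in either direction, and the median was −0.10, or 0.14 with median centring. In 4 all 18-h rats were lower and in 2 all higher, beside 11.2% and 17.9% of all genes. With median centring 1 target passed as higher, and with no further normalization 1 as lower.

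Markers of cells carried in blood had positive medians for most types. The 14 neutrophil markers had a median difference of 0.32 and their summed signal was 16310 to 29440 in 18-h rats, against 7019 to 12140 in 2-h rats. Csf3r and Padi4 were the 2 that rose, beside 2.11% of all genes. In 6 of the 14 the 18-h rats were all higher, beside 17.9% of all genes. Padi4, the enzyme of histone citrullination, rose by 1.22 with 8.05, 8.00 and 8.04 against 6.81, 7.02 and 6.60 (adjusted p = 0.0208 in limma). S100a9, a main granulocyte calcium-binding protein, had 14.02, 13.11 and 13.13 against 12.60, 12.64 and 11.86, a difference of 1.05 (0.140). Without both arrays of low 5′ signal the neutrophil median was 0.02 and 0 of 14 passed. Leaving out 2-h rat 3, 18-h rat 1 or 18-h rat 2 gave a median of 0.10, 0.15 or 0.45, and 0 passed in each.

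No erythroid or platelet marker passed after quantile normalization. With median centring 1 of 7 erythroid and 3 of 8 platelet markers passed as higher (medians 1.04 and 0.87), and without 2-h rat 1, 1 platelet marker did (median 1.06). The 7 erythroid markers had a median of 0.82 with summed signals of 48360 to 55240 at 18 h against 38730 to 42840 at 2 h, and the 8 platelet markers 0.72 with 9755 to 12770 against 5920 to 8921. An unadjusted p under 0.05 in limma was given by 2 erythroid and 5 platelet markers. Slc4a1, the anion exchanger of red cells, had 8.79, 8.61 and 8.93 against 7.18, 7.18 and 7.15, a difference of 1.60 (adjusted p = 0.0928, and 0.0456 with dim probesets left out). Alas2, the erythroid enzyme of heme synthesis, had 12.68, 12.58 and 12.73 against 11.92, 11.81 and 11.59. The platelet integrin chains Itgb3 and Itga2b differed by 0.62 and 0.90. In the absence of both arrays of low 5′ signal the medians were 0.79 and 0.54. How much blood was left in each lung was not recorded in the labels, and its part in these values was not tested.

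Lymphocyte markers gave a single call. Among 12 markers of B cells and plasma cells the median was 0.56, and 7 had all 18-h rats higher, beside 17.9% of all genes. Cd79b, a chain of the B cell receptor, rose by 1.09 with 9.77, 10.28 and 10.10 against 9.38, 9.06 and 8.45 (adjusted p = 0.0357 in limma). Of all genes 2.11% rose. Ms4a1, which encodes CD20, had 9.94, 10.00 and 9.52 against 8.88, 8.89 and 8.48, a difference of 1.07 (0.0692). The 17 T cell markers had a median of 0.49, or 0.16 without 2-h rat 3, and 0 passed, and the 16 markers of NK and cytotoxic cells −0.08, or 0.03 with median centring, with 0 passed.

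Markers of the lung's epithelium gave no call after quantile normalization. Alveolar type II genes were bright at both times, with Sftpc, surfactant protein C, at 14.62, 14.84 and 14.76 in 18-h lungs and 14.50, 14.69 and 14.55 in 2-h lungs, which fits the label of lung tissue. Of the 12 type II markers 0 passed the fold, with a median of 0.10. With median centring 5 passed as higher (median 0.42), with no further normalization 2 (0.26) and without both arrays of low 5′ signal 1, Lpcat1 (0.66, adjusted p = 0.0490). Small differences passed the adjusted p alone, Lpcat1 (0.48, 0.0286), Abca3 (0.37, 0.0221) and Napsa (0.30, 0.0291), enzymes, lipid pump and protease of surfactant handling, being higher and Sftpa1 (−0.24, 0.0481) lower. Sums over the type II list overlapped, at 149300 to 161500 in 18-h rats and 151000 to 159700 in 2-h rats. Type I markers had a median of −0.19, or 0.19 with median centring, and ciliated cell markers −0.24, and 0 passed in either.

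Markers of club cells and heart muscle overlapped between the times in their summed levels. The 5 club cell markers had mean levels of 11.79, 12.95 and 12.25 in 18-h rats and 13.24, 12.37 and 13.60 in 2-h rats, and their median of −0.90 was −0.25 without both arrays of low 5′ signal. Scgb1a1, the main club cell protein, differed by 0.19 and Aldh1a1, a retinal dehydrogenase, by −0.90 (adjusted p = 0.0839). The 11 cardiac muscle markers had a summed signal of 8483 to 19670 at 18 h and 14090 to 17930 at 2 h and a median of −0.46, and Ankrd1 was the member that fell. Without 18-h rat 3 the median was −0.88 and 3 fell, without 18-h rat 2 it was −0.22 and 0 fell, and without 18-h rat 1 or 2-h rat 3 it was −0.33 or −0.45 and 0 fell. The part of heart tissue in that fall was not tested.

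Among 16 endothelial markers, 1 rose and 0 fell. Sox18, a transcription factor of endothelium, had 12.66, 12.97 and 12.48 in 18-h lungs, against 11.86, 11.73 and 11.28 in 2-h lungs. The ranges did not overlap, and Sox18 rose by 1.07 (SE 0.28, adjusted p = 0.0460, and 0.232 without 2-h rat 3). Median centring gave 4 higher and no further normalization 2, while without 2-h rat 1 there were 0 higher and 1 lower. Of 3 Notch pathway genes looked up beside Nrarp after its values were seen, Dll4, a ligand of endothelium, had 11.50, 11.65 and 11.35 against 10.49, 10.24 and 10.20 and rose by 1.19 (0.00757, and 0.0516 without 2-h rat 3). The receptor Notch4 (0.22, 0.587) and the target Hey1 (−0.06, 0.943) overlapped between the times. Emcn, a sialomucin of capillary and venous endothelium, had 9.70, 9.41 and 9.55 against 9.94, 10.40 and 10.75, a difference of −0.81 (0.0577), and Vwf, von Willebrand factor, differed by 0.29. The list median was 0.14, with 9 positive and 7 negative differences.

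**Figure D5:**
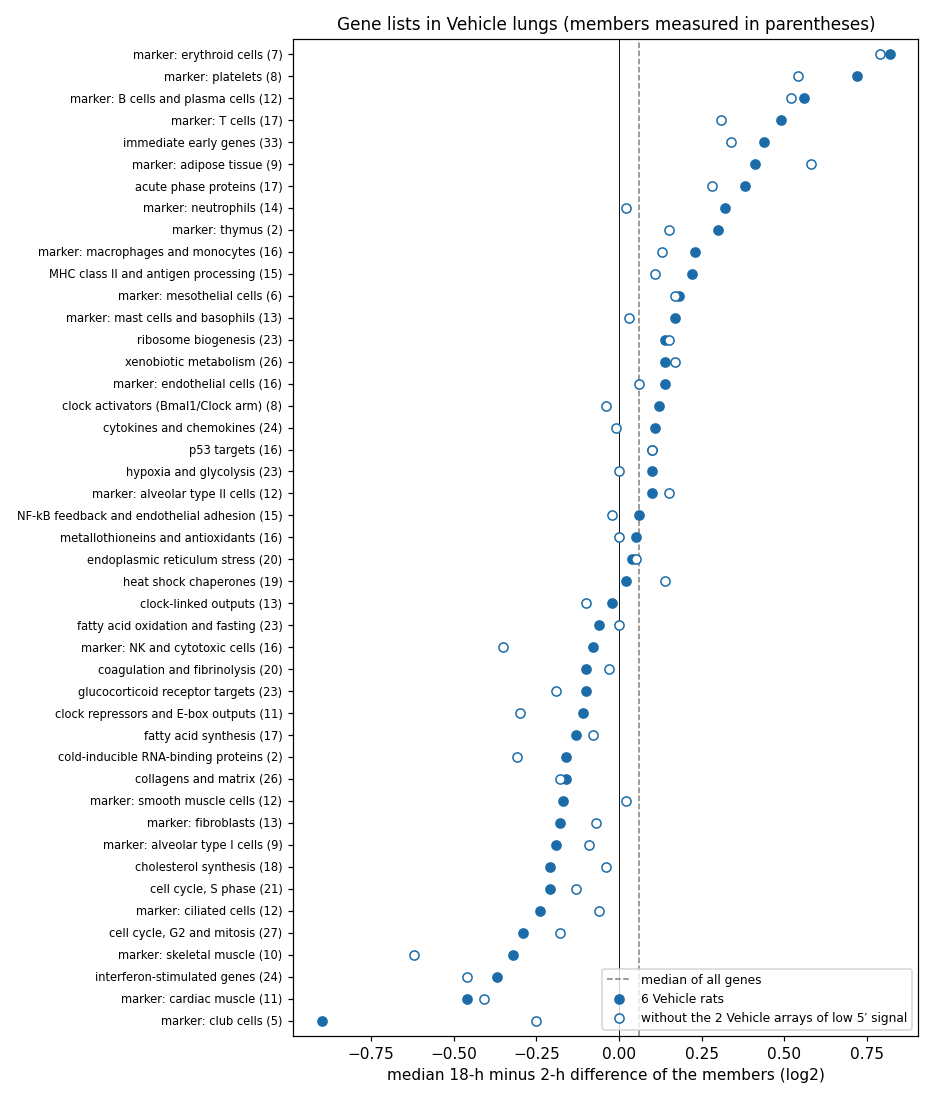
Median 18-h minus 2-h difference (log2) of each gene list in Vehicle lungs, filled for all 6 rats and open without the 2 arrays of low 5′ signal, with the median over all genes (0.06) dashed. Erythroid (0.82) and platelet (0.72) markers lie highest with all rats, and the club cell list, of 5 markers, moves most when the 2 arrays are left out.

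Genes of cell division had mostly negative differences. Of 27 genes of G2 and mitosis 2 fell and 0 rose, beside 1.36% and 2.11% of all genes. In 21 the difference was negative, and the median was −0.29, beside 0.06 over all genes. The mean level over the list overlapped between the times, at 6.76, 7.11 and 6.82 in 18-h rats and 6.99, 7.16 and 7.37 in 2-h rats. Without both arrays of low 5′ signal the list median was −0.18 and 0 passed. Top2a, a DNA topoisomerase of dividing cells, had 6.12, 6.75 and 6.56 in 18-h rats, against 7.13, 7.58 and 7.72 in 2-h rats, and fell by 1.0 (adjusted p = 0.0488). Prc1, of the mitotic spindle, fell by 0.74 (0.0491) and Mki67, the Ki-67 antigen, differed by −1.30 (0.0735). Neither Top2a nor Prc1 passed without 18-h rat 1, at 0.153 and 0.150. Pcna, a clamp of DNA synthesis, was lower in each 18-h rat than in each 2-h rat, with a difference of −0.65 (0.0627), and 0 of 21 S phase genes passed.

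Among matrix genes a single member passed. Tnc, tenascin C, a matrix glycoprotein of injured tissue, had 8.21, 8.16 and 8.57 in 18-h Vehicle lungs, against 9.52, 10.10 and 9.36 in 2-h Vehicle lungs. It fell by 1.35 (SE 0.32, adjusted p = 0.0336) where it differed by 2.29 and 2.06 in Mild PE and Severe PE, and the PE minus Vehicle difference was 3.52 (4.19e-04). Postn, periostin, had all 18-h rats lower (−1.0, 0.0940), as did Fbln5, a protein of elastic fibers (−0.60, 0.104). Tnc was 1 of 26 measured members that passed, 20 had a negative difference and the median was −0.16, or 0.11 with median centring.

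In the other lists at most 1 member passed. Pdia3, a protein disulfide isomerase, fell by 0.81 (adjusted p = 0.0432) among 20 genes of endoplasmic reticulum stress, with 11.14, 11.36 and 12.12 against 12.26, 12.17 and 12.63, and Bop1 was the 1 of 23 genes of ribosome assembly. In the heat shock list 0 of 19 passed, and Hspa1a, the inducible HSP70, had 11.50, 11.25 and 10.83 against 10.64, 10.29 and 10.53, a difference of 0.71 (0.127). No member passed among 18 genes of cholesterol synthesis (median −0.21), 23 of fatty acid oxidation (−0.06, or 0.06 with median centring), 23 of hypoxia and glycolysis (0.10), 26 of xenobiotic metabolism (0.14, where 4 were higher with median centring and 1 with no further normalization, at medians of 0.37 and 0.21), 24 stimulated by interferon (−0.37) or 15 of MHC class II (0.22). The interferon list had a median of −0.46 without both arrays of low 5′ signal and −0.20 without 18-h rat 2. With median centring it was −0.18, and 1 member passed as higher. The cholesterol median was −0.04 without both arrays, and with no further normalization 1 member passed as lower. With median centring 2 members of the MHC class II list (median 0.53) and 2 of the heat shock list (0.21) passed as higher.

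Over the 6 Vehicle rats the genes whose levels ran closest to Nr1d2 were Itga8 (r = 0.995), Dcaf17 and Recql (0.994 each), and those that ran most opposite were Adissp (−0.997), Prickle3 (−0.996) and, further down, the endothelial Sox18 (−0.993), out of 10445 genes with a group mean of at least 7. With 3 rats at each time, any gene that separates the times cleanly correlates strongly with Nr1d2, so these values describe the order of 6 rats only.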

How the data were processed

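RNA of 22 rat lungs was measured on Affymetrix rat arrays, 1 per rat. The deposited values are linear probeset intensities, and their trimmed mean per array averaged 500.2 over the 22 arrays. The methods describe GC-RMA values instead, so another summary of the arrays was analysed here. Of 31099 probesets, 57 controls were dropped. Intensities under 16 were set to 16, taken to log2 and quantile normalized over 22 arrays. Annotation gave 1 symbol to 20826 probesets, several to 436 and none to 9780. R 4.3.3 with limma 3.58.1 (lmFit and eBayes without trend) was fitted to the 6 Vehicle arrays and to all 22 arrays as 6 group means. The script was tested on simulated data. Replicates are labelled as separate rats, and their number limits the precision.

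Members, lists and tests were chosen with earlier results of these data known. Named genes were the clock lists, the genes called on 6 arrays, the 15 largest rises and falls among 460 genes that passed without overlap and had a mean of at least 7 in the higher group, up to 4 members of each other list, 7 genes fixed by name, and those most like Nr1d2. Not all are printed. Alternatives were median centring, quantiles over the 6 arrays, no further normalization, a floor of 64, a variance trend, dim probesets (mean under 7) left out, a replicate block, the methods' t-test, a gene's probesets averaged, 18-h PE arrays left out, each Vehicle array left out, and both arrays of low 5′ signal left out. Promoter windows are from RefSeq, and genes without an entry there were not searched.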

Additional observations from a re-analysis of the deposited data

Results flagged for a closer look

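Of 113 genes examined, 41 had a time difference that differed between PE and Vehicle rats at an adjusted p under 0.05 in limma (PE minus Vehicle, 31 negative and 10 positive), beside 4.99% of all probesets at the same adjusted p with no limit on the fold. Genes picked for a large Vehicle difference tend to show a contrast of the opposite sign here, because the same 6 Vehicle arrays enter both. Among the largest Vehicle rises these were Nrarp (−1.36), Hlx (−1.05), Hist3h2ba (−1.64), Pim1 (−1.38), Tekt5 (−1.81), Gnmt (−1.13), G0s2 (−1.97) and Irs3 (−1.38), and among the falls Exoc5 (1.81) and Zfp367 (1.28). Among immediate early genes they were Egr1 (−1.90), Klf2 (−0.77), Ier2 (−1.04), Ier3 (−1.07), Ier5 (−0.67), Junb (−0.97), Dusp5 (−0.82) and Rhob (−0.65). Among the 10 genes called in all 14 settings counted they were also Il4r (−0.55), Msl1 (−0.51), Chtf8 (−0.52), Zbtb9 (−0.75) and C15h14orf93 (−0.83). In the clock lists Tef (−1.22), Hlf (−1.05) and Cry2 (−0.86) had little or no time difference in Vehicle. Inflammatory and stress genes with this mark were Tnf (−1.66), Cxcl2 (−1.48), Il1b (−1.79), Hspa1a (−2.03), Mt2A (2.83), Selp (1.79), Orm1 (2.42), Saa3 (2.15) and Timp1 (2.15). The rest were Tnc (3.52), Pdia3 (1.37), Vwf (−0.66), Abca3 (−0.37) and 2 near-floor probesets, of Psmb5 (3.15) and without a gene symbol (−2.21).

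In groups of 4 rats, 1 rat stood far from the other 3 for the brighter Clec3b probeset in 18-h Mild PE (8.40), 18-h Severe PE (5.03) and 2-h Severe PE (4.0), with the gap taking 0.834, 0.907 and 0.916 of the group's range. For normally distributed values chance gives such a gap in about 1 in 20 groups. Only this probeset was examined, and it was picked for its on-or-off signal. That rate therefore does not apply, since 1 rat in the other state gives a large gap by itself. The Gapdh 3′ minus 5′ signal was 0.49 for the outlying rat of 18-h Mild PE, 0.25 for that of 18-h Severe PE and 0.52 for that of 2-h Severe PE. The part of array quality in these values was not tested.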

How the results depend on the processing

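The count on all 22 arrays (833) was 1494 with median centring, 1387 with dim probesets left out, 440 with a replicate block, 214 with the 18-h PE arrays left out, 57 to 1371 with 1 Vehicle array left out, and 32 without both arrays of low 5′ signal. Median centring moved the median of all probesets by 0.165 and the share of higher calls to 80.2%, and no further normalization to 35.1%, against 54.6%. On the 6 arrays (5) it was 2 with median centring, 3 at a floor of 64, 9 with a trend, 0 with dim probesets left out, with a replicate block or without both arrays (3540, 5063 and 3667 at an unadjusted p under 0.05 in limma), and 0 to 1 with 1 array left out. The methods' t-test gave 4 after Benjamini-Hochberg. The PE minus Vehicle count (1283) was 758 to 1376 with 1 Vehicle array left out and 518 without both. The Mild PE and Severe PE counts stayed within 1.5 times under each alternative. No named gene that passed changed direction under any alternative run. Same-numbered rats correlated at −0.047, −0.094 and 0.222 in their deviations, and not each correlated best with its own number, so the numbers were not taken as pairs. The cause of these shifts was not tested. With 3 arrays a group, signal near the floor limits dim genes most.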
